A study of Mus musculus with 8 samples.

Results

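Hbegf, Thbd, Sphk1, Errfi1, Id2 and Sbno2 are 6 growth-signal response genes of mouse adipose tissue macrophages. They were selected by how 2 macrophage populations differed on each of 2 diets. They are 6 of the 18040 genes listed in the series, and each is among the 16136 genes listed for both diets. They were chosen by name because their level in adhesion-related macrophages (ARMs) exceeded that in stromal vascular fraction macrophages (SMs, labelled NARM) on chow, while on high-fat diet (HFD) the difference was near or below 0. Both of these differences, and the contrast between them, therefore chose the genes, and they are given below as a description with no test. All 8 libraries came from epididymal white adipose tissue (eWAT) of male wild-type C57BL/6J mice. The 4 groups were ARMs and SMs of mice on normal chow (ND) and ARMs and SMs of mice on the HFD (60% fat), with 2 libraries per group. Both diets started at 6 weeks of age, and the HFD mice stayed on theirs for 8 weeks. Each library pooled 10 ND mice or 6 HFD mice, so the spread between libraries is a spread between pools. SMs were sorted as CD45+CD11b+F4/80+ cells from the stromal pellet of collagenase-digested eWAT, and ARMs by the same gate from the floating adipocyte layer after vortexing with a bead, so the 2 populations also differed in how the cells were released.

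The 6 genes belong to signalling steps that are often switched on together. Growth factors of the EGF family are made as membrane-anchored precursors, released by ADAM proteases and bound by EGF receptors, whose activity runs through the ERK kinases to early-response genes. Several products of that response act back on the receptor, and others make secondary mediators such as sphingosine 1-phosphate. HB-EGF, the product of Hbegf, is one such ligand and is well known in macrophages. Thrombomodulin, encoded by Thbd, is a membrane receptor that turns thrombin toward activating protein C. Sphk1 encodes the kinase that makes sphingosine 1-phosphate. Errfi1 encodes MIG6, a feedback inhibitor that binds the kinase domain of the EGF receptor. Id2 encodes a helix-loop-helix protein with no DNA-binding region that holds E proteins away from DNA. Sbno2 encodes a nuclear corepressor homologous to the fly protein strawberry notch and is a target of interleukin-10 and STAT3 in macrophages.

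Promoter sequence was available from RefSeq for 4 of the 6 genes, and it is shown as a description. The windows below are the 120 bases directly before an annotated start site, 5′ to 3′ on the gene's own strand, in lower case with motif matches in capitals. Matches of the common E-box CANNTG and GC box GGGCGG were left in lower case. Errfi1 start 2 is at chr4:150854950-150855069 (+), Sphk1 start 2 at chr11:116531717-116531836 (+), Sbno2 start 1 at chr10:80102703-80102822 (-), Sbno2 start 2 at chr10:80101188-80101307 (-) and Id2 at chr12:25096093-25096212 (-).
Errfi1 start 2: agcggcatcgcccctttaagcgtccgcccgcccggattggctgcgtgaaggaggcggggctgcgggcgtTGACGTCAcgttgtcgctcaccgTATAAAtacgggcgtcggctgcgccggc
Sphk1 start 2: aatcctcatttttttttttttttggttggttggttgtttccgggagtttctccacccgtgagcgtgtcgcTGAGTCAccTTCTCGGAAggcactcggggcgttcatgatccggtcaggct
Sbno2 start 1: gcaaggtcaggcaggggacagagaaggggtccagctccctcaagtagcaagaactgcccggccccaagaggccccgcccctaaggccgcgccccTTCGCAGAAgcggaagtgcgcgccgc
Sbno2 start 2: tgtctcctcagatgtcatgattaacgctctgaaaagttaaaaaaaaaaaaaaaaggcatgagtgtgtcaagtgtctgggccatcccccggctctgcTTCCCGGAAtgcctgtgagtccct
Id2: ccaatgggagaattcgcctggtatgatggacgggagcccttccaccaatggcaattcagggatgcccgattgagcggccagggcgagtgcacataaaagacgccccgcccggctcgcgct
In Errfi1 the capitals mark a full cyclic AMP response element, TGACGTCA, 51 to 44 bases before the start, and a TATAAA at 28 to 23 bases before it. In Sphk1 they mark an AP-1 element matching TGANTCA at 50 to 44 bases before the start, followed after 2 bases by a STAT element matching TTCNNNGAA at 41 to 33 bases before it. Both Sbno2 windows carry a STAT element, at 26 to 18 bases before start 1 and 24 to 16 bases before start 2. The Id2 window holds none of the capital motifs.

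Motifs were searched in 12620 promoters of 300 bases (250 before and 50 after the start) of 9888 tested genes. The search covered both strands, except that TATAAA was searched on the gene's own strand only. AP-1 was found in 5.2% of these promoters, the full cyclic AMP element in 2.9%, the STAT element in 7% and TATAAA in 4.4%. Counted per gene, with a match at any listed start, these shares were 6.3%, 3.5%, 8.4% and 5.5%. An NF-kB element, held by 12.3% of genes, was found at other starts of Sphk1 and Sbno2, and the CArG box (1.5% of genes) and the EGR motif GCGNGGGCG (12.1%) were found at none of the 4 genes. No motif other than the E-box CANNTG, which 67.5% of genes hold, was found in all 4, and the GC box GGGCGG, held by 67.8% of genes, was found in 3 of the 4. Sphk1 has 5 listed starts, Sbno2 3 and Errfi1 2, and the deposited values are per gene and do not show which start was used. A match is a description of letters only.

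The genes lie on 6 different chromosomes of GRCm38.p6. Hbegf spans chr18:36504927-36515805 and Thbd chr2:148404471-148408188, both on the minus strand, and Thbd has a single exon. Sphk1 spans chr11:116530836-116536675 and Errfi1 chr4:150853796-150868889 on the plus strand. Id2 spans chr12:25093799-25096092 and Sbno2 chr10:80056992-80106108 on the minus strand. Sphk1 shares exon sequence with Gm29292, and since the sources used here do not say whether counting used strand, reads of the pair may not be separable. No exon of the other 5 genes overlapped another annotated gene. Id2, at 2294 bases, was at the 2.8th percentile of gene span among tested genes, and Sbno2, at 49117 bases, was at the 72.2nd, so the 6 did not share a gene size.

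Library totals ranged from 14508824 to 19040133 estimated counts. The common biological variation between replicate libraries was 8.61% in the ND fit and 5.55% in the HFD fit. The 11 macrophage markers fixed for the check (among them Adgre1, Csf1r, Cd68 and C1qa) summed to 10831 to 13512 FPKM (fragments scaled to gene length and library size) in every library, and markers of T, natural killer and B cells together stayed at or below 5.8 FPKM per list. Member levels are FPKM as the authors deposited them. Counts behind the member values ranged from 227, for a counting error of 6.64%, to 14877. Because these are bulk samples of sorted cells, fewer cells of a type and less RNA per cell cannot be told apart in any level below.

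The ligand gene Hbegf was clearly lower in one group than in the other 3. In ND mice it was at 38.89 and 41.76 FPKM in the SM libraries and at 71.07 and 70.24 in the ARM libraries. In HFD mice it was at 70.80 and 66.85 in SMs and at 81.08 and 75.01 in ARMs. The ARM libraries lay above the SM libraries on both diets, but the ratio of means was 1.75 in ND mice and 1.13 in HFD mice. The HFD SM libraries had reached the level of the ND ARM libraries, with which they overlapped. The fitted log2 fold change of ARM over SM was 0.81 in ND mice and 0.15 in HFD mice.

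Thbd, the thrombin receptor gene, was the member with the widest range across groups. The ND SM libraries were at 31.18 and 34.03 FPKM and the ND ARM libraries at 41.58 and 48.08. The HFD SM libraries were at 114.29 and 104.07 and the HFD ARM libraries at 84.37 and 78.55. No neighbouring groups overlapped, and the order of SM and ARM turned around between the diets. The fitted log2 fold change of ARM over SM was 0.46 in ND mice and -0.45 in HFD mice, and both cell populations were higher on HFD, by 3.35-fold in SMs and 1.82-fold in ARMs on the FPKM scale.

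Sphk1, the sphingosine kinase gene, was the least abundant member. It was listed at 7.49 and 7.50 FPKM in ND SMs and at 15.29 and 15.28 in ND ARMs. It was at 15.54 and 14.38 in HFD SMs and at 14.32 and 14.67 in HFD ARMs. ND SMs thus stood alone at about the lower level, and the HFD SM libraries overlapped with both ARM groups. The fitted log2 fold change was 0.96 in ND mice and -0.03 in HFD mice. Agreement between the ND replicates was tighter than their counting errors of 4.62% to 6.64%, so it says little about the precision of the level.

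Errfi1, the receptor inhibitor gene, showed the mirror arrangement, with 1 high group. It was at 55.57 and 59.34 FPKM in ND SMs and at 94.12 and 99.38 in ND ARMs. It was at 61.68 and 63.77 in HFD SMs and at 66.21 and 66.89 in HFD ARMs. The HFD ARM libraries remained above the HFD SM libraries by a ratio of 1.06, against 1.68 in ND mice. The fitted log2 fold changes were 0.75 and 0.06.

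The 2 nuclear regulators followed Errfi1 in having ND ARMs as their highest group. Id2 was at 81.49 and 81.72 FPKM in ND SMs, 127.06 and 129.86 in ND ARMs, 99.49 and 99.68 in HFD SMs and 90.42 and 92.12 in HFD ARMs. Sbno2 was at 148.69 and 154.29 in ND SMs, 190.21 and 196.34 in ND ARMs, 159.20 and 166.46 in HFD SMs and 141.69 and 141.99 in HFD ARMs. In both genes the order of SM and ARM turned around on HFD without overlap of libraries. The fitted log2 fold change of ARM over SM was 0.65 and -0.15 for Id2 and 0.35 and -0.23 for Sbno2, in ND and HFD mice respectively. Sbno2 had the smallest ND difference of the 6 and was also the most abundant, at the 96.5th percentile of mean FPKM.

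**Figure D1:**
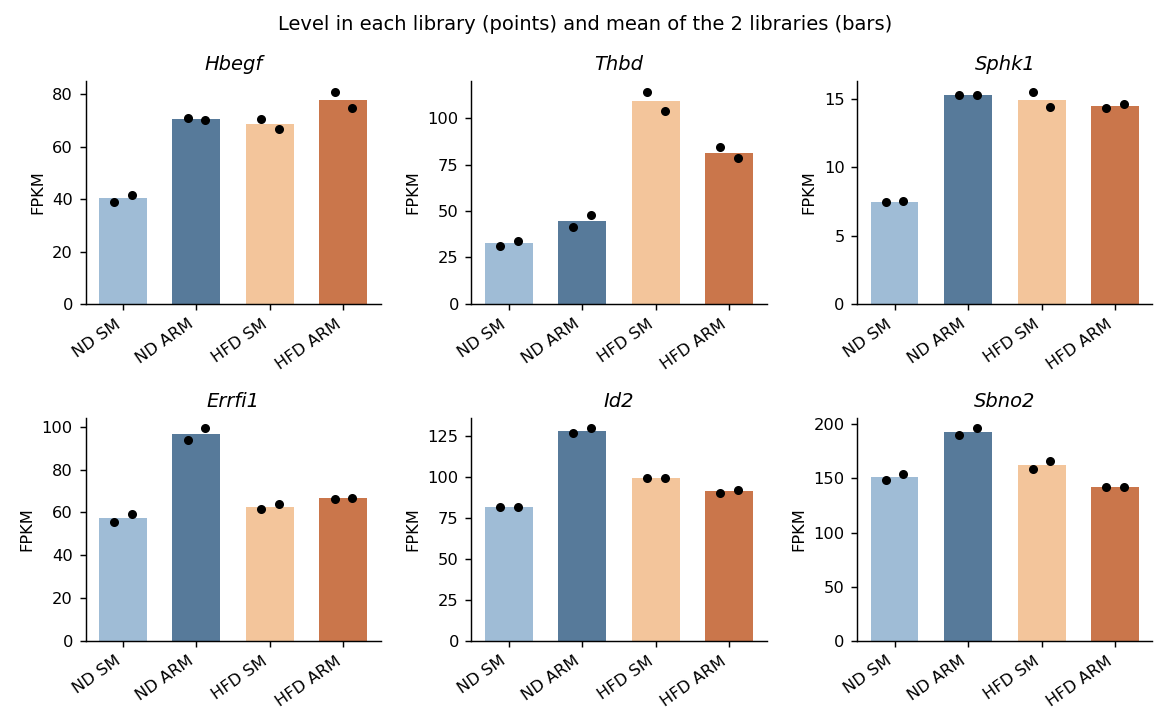
FPKM of the 6 genes by group, with each library as a point and the mean of 2 libraries as a bar (each axis starts at 0 and has its own range). ND SMs are the low group for Hbegf and Sphk1, whereas ND ARMs are the high group for Errfi1, Id2 and Sbno2, and Thbd is highest in HFD SMs.

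Set side by side, all 6 genes had both ARM libraries above both SM libraries in ND mice, an arrangement found in 20.9% of tested genes (22.4% had the opposite one). In HFD mice, Hbegf and Errfi1 kept that arrangement (29.2% of tested genes), Thbd, Id2 and Sbno2 had both ARM libraries below both SM libraries (21.3%), and Sphk1 overlapped. Because these contrasts chose the genes, the counts only describe them. The median fitted log2 fold change of the 6 was 0.70 in ND mice and -0.09 in HFD mice, against -0.016 and -0.006 for all genes tested. The difference between diets (HFD less ND) ranged from -0.60 for Sbno2 to -1.01 for Sphk1, with a median of -0.77 against -0.025 for all genes. A log2 fold change at least as high as that of Sbno2 in ND mice together with one no higher than that of Hbegf in HFD mice was found in 338 of 12343 genes tested on both diets (2.74%), and in 63 of the 4784 whose mean FPKM was at least that of Sphk1 (1.32%). Such genes are thus not rare, and the 6 are a named selection among them. In the fit over all 8 libraries, 0.0524% of the 13352 genes other than the 6 (7 genes) had a difference between diets that was lower at an adjusted p under 0.05, and 0.0674% were higher. Leaving out any 1 library moved the median difference of the 6 between -0.78 and -0.71.

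**Figure D2:**
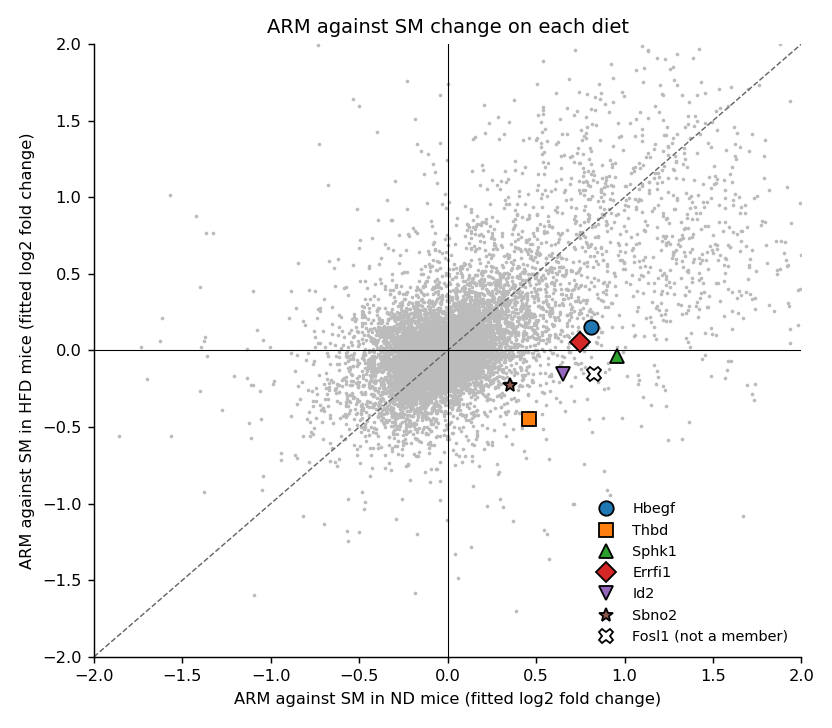
Fitted log2 fold change of ARM over SM in ND mice (x axis) and in HFD mice (y axis) for 12343 genes tested on both diets (grey, 76 lie outside the axes), with the 6 genes and Fosl1 marked and equal change drawn as a dashed line. The 6 genes lie right of 0 on x, between 0.35 and 0.96, and between -0.45 and 0.15 on y, below the dashed line.

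The group whose level stood apart between diets was not the same in all members. The tables of the 2 diets were deposited separately, so levels across diets are given as values only, and the gene length implied by count and FPKM was also longer in the HFD table, by a ratio of 1.042 for Sbno2 to 1.120 for Id2. The median log2 ratio of HFD over ND FPKM over all genes was -0.15 in SMs and -0.12 in ARMs, and the shifts below are relative to those medians. In SMs, all 6 genes were higher on HFD in both libraries, an arrangement found in 24.6% of genes (49.5% were lower). The levels that chose the genes also enter these shifts, so the counts and shifts between diets only describe the 6. The shift in SMs was 1.89 for Thbd, 1.15 for Sphk1 and 0.92 for Hbegf on the log2 scale, and smaller for Id2 (0.44), Errfi1 (0.28) and Sbno2 (0.25). In ARMs, the shift was below 0 for Errfi1 (-0.42), Id2 (-0.37) and Sbno2 (-0.32), close to 0 for Sphk1 (0.05) and above 0 for Hbegf (0.27) and Thbd (0.99). On FPKM itself, both HFD ARM libraries were above both ND ARM libraries for Hbegf and Thbd (25.8% of genes) and below them for the other 4 (46% of genes).

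Relative to all genes, Hbegf, Thbd and Sphk1 thus differed between diets more in SMs, where they were higher on HFD, and Errfi1 more in ARMs, where it was lower. Sbno2 (0.25 in SMs and -0.32 in ARMs) and Id2 (0.44 and -0.37) were higher in SMs and lower in ARMs by similar amounts. On counts scaled over all 8 libraries (TMM-normalized CPM), the relative shifts of Id2 were 0.50 in SMs and -0.30 in ARMs, while its FPKM ratios before subtracting the medians were 0.29 and -0.49, so which of the 2 was larger depended on the centring. The ratio of Sphk1 in ARMs before subtracting the medians depended on the scale, at -0.08 in FPKM, with both HFD libraries below both ND libraries, and 0.07 in CPM, with both above. The sign of the other 11 ratios was the same in FPKM, TPM and CPM.

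**Figure D3:**
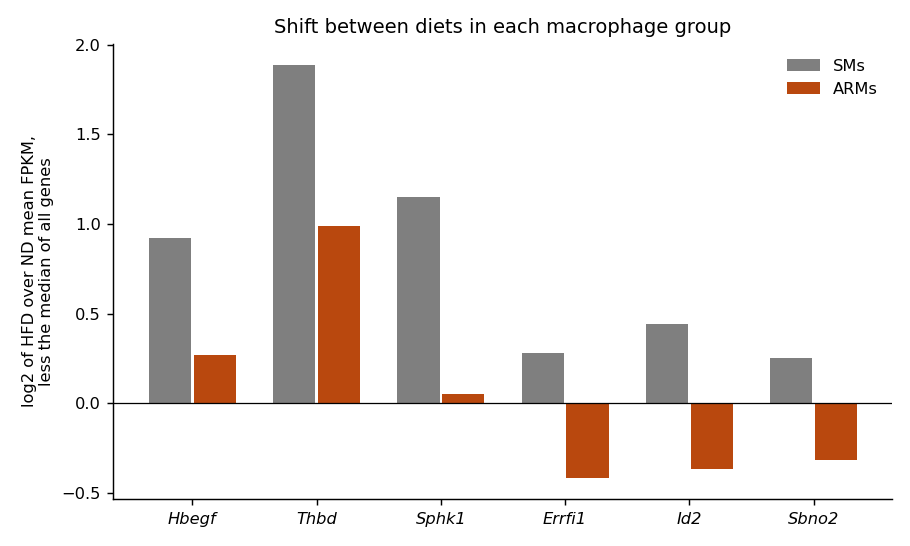
Log2 ratio of mean HFD over mean ND FPKM, less the median of all genes, in SMs (grey) and ARMs (orange) for each of the 6 genes (means of 2 libraries per group, no error bar). Thbd, Sphk1 and Hbegf have the tall SM bars, at 1.89, 1.15 and 0.92, and Errfi1, Id2 and Sbno2 have ARM bars below 0.

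Markers of other cell types moved with some of these levels, and their part in the result was not tested. The 9 mesothelial markers summed to 6.0 and 7.8 FPKM in ND SMs, 20.9 and 26.7 in ND ARMs, 17.2 and 8.8 in HFD SMs and 19.2 and 14.1 in HFD ARMs. Of these, 7 of 9 were called higher in ND ARMs and 0 of 9 in HFD ARMs by edgeR (9 and 1 at an unadjusted p under 0.05, and 6 and 0 by DESeq2). The difference between diets passed for 0 of the 9 by edgeR or DESeq2, with 7 at an unadjusted p under 0.05. The 9 fibroblast and progenitor markers summed to 80.3 and 109.4 in ND SMs and 225.1 and 326.7 in ND ARMs, against 126.3 and 113.5 in HFD SMs and 171.0 and 210.4 in HFD ARMs. Adipocyte markers (10 genes) reached 89.7 and 152.6 in ND ARMs and 96.9 and 105.4 in HFD ARMs, against 45.1 and 55.1 in ND SMs and 27.9 and 29.9 in HFD SMs. This is a contrast on both diets, and it tended to be larger on HFD. The difference between diets was above 0 for 9 of 10, with a median of 1.05. It passed for 2 of 10 by edgeR and DESeq2, Lep (1.80, edgeR adjusted p = 0.038) and Plin4 (1.92, edgeR adjusted p = 0.0389). The 12 vascular endothelial markers summed to 12.8 and 15.0 in ND SMs, 15.8 and 33.6 in ND ARMs, 26.2 and 18.2 in HFD SMs and 64.6 and 61.7 in HFD ARMs, with 1 of 12 called higher in ND and 11 of 12 in HFD ARMs. The 6 lymphatic endothelial markers summed to 2.9 and 3.5 in ND SMs, 10.3 and 11.3 in ND ARMs, 4.8 and 7.2 in HFD SMs and 9.3 and 11.6 in HFD ARMs, with 4 of 6 called higher in ND and 3 of 6 in HFD ARMs. The 7 pericyte and smooth muscle markers summed to 8.0 and 6.7 in ND SMs, 9.2 and 13.1 in ND ARMs, 19.4 and 12.5 in HFD SMs and 30.7 and 27.5 in HFD ARMs.

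Within the ND ARM pair, ARM replicate 2 had the higher sum in each of these 6 lists. Thbd, Errfi1, Id2 and Sbno2 were also higher in replicate 2, Thbd at 48.08 against 41.58 FPKM, while Hbegf (70.24 against 71.07) and Sphk1 (15.28 against 15.29) were slightly lower. The 5 neutrophil markers summed lower in ARMs in ND mice only, with 79.9 and 70.8 FPKM in ND SMs and 37.0 and 63.3 in ND ARMs. In HFD mice they summed to 39.8 and 39.6 in SMs and 47.9 and 47.2 in ARMs. In ND mice 1 of the 5, Csf3r, had a log2 fold change above 0 (0.38, edgeR adjusted p = 0.0978). No marker of any list was at 0 in both libraries of a group.

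**Figure D4:**
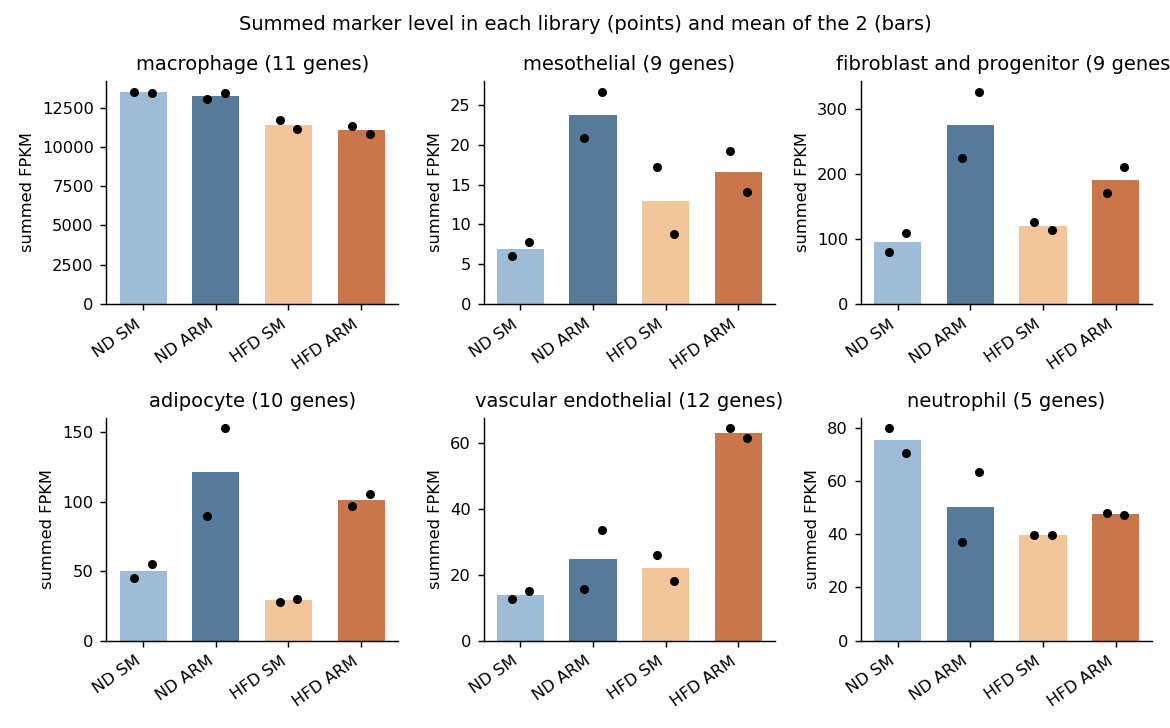
Summed FPKM of 6 lists of cell type markers in each library (points) and the mean of 2 libraries per group (bars), with axes from 0 and a range of their own. The macrophage sum stays between 10831 and 13512, and the mesothelial and fibroblast sums are highest in ND ARMs.

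The genes around the members in their pathways were tested, since the rule that chose the 6 did not use their values. The lists were drawn up with earlier results of these data known, so the shares below are no independent evidence. Of 142 pathway genes without the members, 128 were tested in ND mice, where 14 were called higher and 1 lower in ARMs (edgeR, fold change over 1.5 and adjusted p under 0.05), while 3.52% of all genes other than the 6 were called higher and 0.129% lower. In HFD mice 13 of 129 were called higher and 1 lower, against 4.46% and 0.293% of all genes other than the 6. The difference between diets was called for 1 of 132, Fosl1, against 0.12% of all genes other than the 6. DESeq2 called 12 of these genes in ND mice, without Areg, Procr and F10, 12 in HFD mice, without Adam12 and F3, and 6 for the difference. The median log2 fold change of these pathway genes was 0.07 in ND mice and -0.01 in HFD mice, and the median difference between diets was -0.13, against -0.77 for the 6.

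Among the other EGF-family ligands, Areg, which encodes amphiregulin, rose in ND ARMs. It was at 9.27 and 8.10 FPKM in SMs and 12 and 15.10 in ARMs (log2 fold change 0.64, SE 0.17, edgeR adjusted p = 0.0444). In HFD mice it was at 4.21 and 4.96 in SMs and 5.98 and 6.11 in ARMs, with a log2 fold change of 0.37 (SE 0.157, edgeR adjusted p = 0.189). Hbegf was thus the most abundant gene of the ligand list, and Ereg, encoding epiregulin, stayed at or below 0.25 FPKM. The ND call of Areg was lost without ND ARM replicate 2 (0.46), without ND SM replicate 1 (0.73) and without ND SM replicate 2 (0.55), and by DESeq2.

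None of the 3 receptors tested was called on either diet by edgeR (1 in ND and 2 in HFD mice at an unadjusted p under 0.05) or by DESeq2. Egfr, the main receptor for HB-EGF, was at 20.29 to 26.36 FPKM in all 8 libraries, with log2 fold changes of -0.01 in ND and -0.14 in HFD mice. Erbb2 did not exceed 0.29 FPKM and Erbb4 was listed at 0 in the HFD table. Of the shedding proteases, Adam17 (0.15 in ND, 0.13 in HFD) and Adam10 (-0.12 and -0.10) had small log2 fold changes that did not pass. Adam12, another protease able to release HB-EGF, rose in ARMs on both diets from low levels, by 1.25 (SE 0.269, edgeR adjusted p = 0.0134) in ND mice and 1.13 (SE 0.235, edgeR adjusted p = 0.0144) in HFD mice. Cd9, a tetraspanin that associates with the HB-EGF precursor, rose in HFD ARMs by 0.83 (SE 0.146, edgeR adjusted p = 0.00615), and had a log2 fold change of 0.52 in ND mice, below the 1.5-fold limit.

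Adam12 and Cd9 were thus called in HFD ARMs, the diet on which the ARM over SM ratio of Hbegf was 1.13. The difference between diets was -0.13 for Adam12 (SE 0.377) and 0.29 for Cd9 (SE 0.218), and neither passed. The ND call of Adam12 was lost without ND ARM replicate 2 (0.94) or ND SM replicate 1 (1.05), its HFD call without HFD ARM replicate 1 (0.95) or 2 (1.29) and by DESeq2, and that of Cd9 in HFD mice without HFD ARM replicate 2 (0.57). Rhbdf2, which encodes a partner of ADAM17, was the closest to Hbegf in this list, with log2 fold changes of 0.56 in ND and 0.05 in HFD mice and a difference of -0.53 (SE 0.111, edgeR adjusted p = 0.0993) that passed by DESeq2.

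Of the 15 tested genes of the feedback inhibitor list, 1 rose and 1 fell in ND ARMs and 2 rose in HFD ARMs. Dusp6, a phosphatase that switches off ERK and is itself an ERK target, fell in ND ARMs, from 41.23 and 39.38 FPKM in SMs to 23.53 and 23.01 in ARMs (log2 fold change -0.79, SE 0.0969, edgeR adjusted p = 0.000238). In HFD mice it was at 50.61 and 43.11 in SMs and 38.75 and 40.98 in ARMs (-0.26, edgeR adjusted p = 0.072). Dusp6 was thus opposite in direction to Errfi1 in ND mice. Dusp5, another ERK phosphatase, rose in ND ARMs by 0.69 (SE 0.171, edgeR adjusted p = 0.0292), with 34.76 FPKM in ARM replicate 2 against 22.69 in replicate 1. This call was lost without ND ARM replicate 2 (0.35) or ND SM replicate 1 (0.65).

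Of the Sprouty genes, inhibitors of receptor signalling, Spry1 and Spry4 were called in HFD mice. Spry1 rose in ARMs from 1.94 and 1.73 FPKM to 4.26 and 4.27 (log2 fold change 1.20, SE 0.15, edgeR adjusted p = 0.000871) and Spry4 by 1.30 (SE 0.221, edgeR adjusted p = 0.00506). In ND mice they had 0.44 and 0.81, and the difference between diets of 0.75 for Spry1 (SE 0.279, edgeR adjusted p = 0.474) and 0.48 for Spry4 (SE 0.417, edgeR adjusted p = 0.895) did not pass. Spry2 did not pass on either diet (0.74 in ND and 0.25 in HFD mice). The call of Spry4 was lost without HFD ARM replicate 2 (1.12). Of 9 tested genes of the ERK output list, 1 was called in ND mice (Dusp6, lower) and 1 in HFD mice (Spry4, higher).

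In the sphingosine 1-phosphate pathway, edgeR called 2 of 18 tested genes higher in ND ARMs and 3 of 19 in HFD ARMs, and none lower. Sphk2, the second kinase, was at 16.72 to 24.91 FPKM in all libraries with log2 fold changes of -0.02 and -0.06, and Sgpl1, the lyase that breaks the lipid down, had 0.21 and 0.03. The receptor gene S1pr1 was at 41.60 to 55.92 FPKM with -0.21 in ND mice and -0.25 in HFD mice, below the 1.5-fold limit on both diets. The difference between diets was -0.06 for Sphk2 (SE 0.128), -0.19 for Sgpl1 (SE 0.113) and -0.06 for S1pr1 (SE 0.106), and none passed.

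The called genes were Plpp3, S1pr3 and Spns2. Plpp3, a membrane phosphatase acting on lipid phosphates, rose by 1.5 (SE 0.216, edgeR adjusted p = 0.00071) in ND and by 0.64 (SE 0.102, edgeR adjusted p = 0.00351) in HFD mice, and the difference between diets of -0.88 (SE 0.304) did not pass (edgeR adjusted p = 0.422). S1pr3, another receptor, rose by 1.30 (SE 0.265, edgeR adjusted p = 0.00892) and 1.0 (SE 0.189, edgeR adjusted p = 0.00906), with no library above 2.34 FPKM. Spns2, the exporter, rose in HFD ARMs by 1.30 (SE 0.252, edgeR adjusted p = 0.0101), to 1.15 and 1.56 FPKM. In ND mice the call of S1pr3 was lost without ND ARM replicate 2 (0.88) or ND SM replicate 1 (1.16). In HFD mice the calls of S1pr3 (0.99 and 1.01), Spns2 (1.46 and 1.12) and Plpp3 (0.64 and 0.64) were lost without ARM replicate 1 or 2, and that of Plpp3 also without SM replicate 2 (0.53).

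The coagulation list, to which Thbd belongs, had the largest number of called genes. In ND mice 6 of 15 tested genes rose in ARMs, and in HFD mice 4 of 15 rose. F3, encoding tissue factor, the starter of coagulation, rose from 4.01 and 4.09 FPKM to 8.22 and 9.19 in ND mice (log2 fold change 1.10, SE 0.163, edgeR adjusted p = 0.000825) and from 3.87 and 4.33 to 6.06 and 6.54 in HFD mice (0.59, SE 0.125, edgeR adjusted p = 0.0156). Procr, the receptor that presents protein C to the thrombin and thrombomodulin complex, rose in ND ARMs by 0.94 (SE 0.222, edgeR adjusted p = 0.0234) and had 0.51 in HFD mice. F10, encoding factor X, rose on both diets, by 0.76 (SE 0.193, edgeR adjusted p = 0.0329) and 1.19 (SE 0.139, edgeR adjusted p = 0.000575). The lower genes of the list, named after their values were seen, included F13a1, encoding the factor XIII A subunit (-0.43 in HFD mice, SE 0.0595, edgeR adjusted p = 0.00145), and Pros1, encoding protein S (-0.34, SE 0.0627, edgeR adjusted p = 0.0073), both short of 1.5-fold.

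Plat and Plau, the tissue and urokinase plasminogen activators of fibrinolysis, rose in ND ARMs, with log2 fold changes of 1.45 (SE 0.237, edgeR adjusted p = 0.00181) and 0.59 (SE 0.116, edgeR adjusted p = 0.00668). Plaur, the urokinase receptor, was at 69.92 and 67.49 FPKM in ND SMs and 107.01 and 106.20 in ND ARMs (0.63, SE 0.0941, edgeR adjusted p = 0.000831). In HFD mice these 3 genes had 0.44, 0.26 and 0.24 and were not called. In HFD ARMs, F2r, a thrombin receptor, rose by 1.25 (SE 0.262, edgeR adjusted p = 0.0148) and F7, encoding factor VII, by 1.08 (SE 0.249, edgeR adjusted p = 0.0231).

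Several of these coagulation calls were lost when 1 library was left out, and DESeq2 called neither Procr and F10 in ND mice nor F3 in HFD mice. The left-out values are in brackets. Those of Procr in ND mice and of F3 and F2r in HFD mice stayed near the full values of 0.94, 0.59 and 1.25. In ND mice, Procr lost its call on leaving out any 1 of the 4 libraries (0.90 to 0.98), F10 without ARM replicate 2 (0.42), SM replicate 1 (0.77) or SM replicate 2 (0.75), and Plau without ARM replicate 1 (0.41) or SM replicate 2 (0.52). In HFD mice, F3 was not called without ARM replicate 1 (0.63), ARM replicate 2 (0.55) or SM replicate 1 (0.51), F2r without ARM replicate 1 (1.39) or 2 (1.10), and F7 without ARM replicate 2 (0.70). The difference between diets passed for 0 of 15 by edgeR or DESeq2, with 5 at an unadjusted p under 0.05.

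Among the relatives of Id2, Id1 rose in HFD ARMs, from 6.50 and 4.50 FPKM in SMs to 9.99 and 12.44 (log2 fold change 1.0, SE 0.189, edgeR adjusted p = 0.00898). It had 0.34 in ND mice, and the difference between diets of 0.64 (SE 0.388) did not pass (edgeR adjusted p = 0.8). The call was lost without HFD ARM replicate 1 (1.14) or 2 (0.85). Id3 had -0.02 in ND mice and -0.41 in HFD mice (SE 0.0768, edgeR adjusted p = 0.00879), short of 1.5-fold. The E protein gene Tcf12 had -0.01 and -0.09. Of the 12 genes of this list tested in ND mice, 0 were called by edgeR or DESeq2 (1 at an unadjusted p under 0.05 by edgeR).

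Around Sbno2, the interleukin-10 and STAT3 genes had small differences, and several leaned as Sbno2 did. Stat3 was at 127.16 and 140.56 FPKM in ND SMs and 169.61 and 188.09 in ND ARMs, then at 125.88 and 131.24 in HFD SMs and 135.89 and 124.75 in HFD ARMs. Its log2 fold change was 0.42 (SE 0.102, edgeR adjusted p = 0.0253) in ND mice and -0.01 in HFD mice, and the difference of -0.45 (SE 0.12) did not pass (edgeR adjusted p = 0.209). Bcl3, another nuclear regulator of NF-kB, had 0.41 (SE 0.108, edgeR adjusted p = 0.0428) and -0.03, with a difference of -0.46 (SE 0.124, edgeR adjusted p = 0.22). Both were below 1.5-fold in ND mice.

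Cebpb, encoding a transcription factor, and Etv3, encoding an ETS-family repressor, had the same order and are named after their values were seen. Cebpb had 0.42 and -0.23, with a difference of -0.67 (SE 0.161, edgeR adjusted p = 0.146), and Etv3 had 0.39 and -0.04, with a difference of -0.44 (SE 0.142, edgeR adjusted p = 0.342).

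Other partners had smaller values in ND mice or were higher on both diets. Sbno1, the homologue of Sbno2, had 0.11 and -0.07, and the receptor gene Il10ra had -0.02 on both diets. Il10 itself was higher in ARMs on both diets and did not lean as Sbno2 did. It had 0.50 (SE 0.0931, edgeR adjusted p = 0.00475) in ND and 0.43 (SE 0.0713, edgeR adjusted p = 0.00411) in HFD mice. Both were short of 1.5-fold, and its difference between diets was -0.08 (SE 0.111, edgeR adjusted p = 0.946). Socs3, a STAT3 target and inhibitor, had -0.09 in ND and -0.41 in HFD mice (SE 0.0676, edgeR adjusted p = 0.00432), short of 1.5-fold. Osmr, encoding the oncostatin M receptor, rose in ARMs on both diets from at most 0.91 FPKM in SMs, by 1.60 (SE 0.314, edgeR adjusted p = 0.00704) and 1.15 (SE 0.191, edgeR adjusted p = 0.0044). These calls were lost without ND ARM replicate 2 (1.06) and without HFD ARM replicate 1 (0.95). Across the list, 2 of 20 tested genes had a difference between diets above 0, with a median of -0.23, 9 had an unadjusted p under 0.05, 0 passed by edgeR and 1 (Cebpb, lower) passed by DESeq2.

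Early-response genes that growth factors and tissue handling both induce did not rise together in ND ARMs. Of 30 tested, 2 (Fosl1 and Myc) rose in ND mice and 1 (Klf2) fell in HFD mice, with median log2 fold changes of -0.06 and -0.19. Fos was at 1058 and 1100 FPKM in ND SMs and 698 and 750 in ND ARMs (-0.57, SE 0.1, edgeR adjusted p = 0.00291) and had -0.36 in HFD mice. Jun had -0.49 and -0.41, and Egr1 -0.11 and -0.25. These 3 genes thus had lower values in ARMs on both diets, where the members had higher values in ND ARMs. Of all 30, 11 were above 0 in ND and 6 in HFD mice. At any fold change, 8 in ND and 12 in HFD mice had an edgeR adjusted p under 0.05. Among the 8 were Maff (0.52) and Nr4a3 (0.37), both higher in ND ARMs and named after their values were seen. The difference between diets was above 0 in 7 of 30, with a median of -0.17, and 11 had an unadjusted p under 0.05. Myc rose in ND ARMs by 0.81 (SE 0.17, edgeR adjusted p = 0.011), and this call was lost without ND ARM replicate 2 (0.47) or ND SM replicate 1 (0.70). Klf2 fell in HFD ARMs by 0.62 (SE 0.0731, edgeR adjusted p = 0.000616), and without HFD ARM replicate 1 (-0.55) or HFD SM replicate 1 (-0.54) it was short of 1.5-fold.

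Fosl1, which encodes the AP-1 subunit FRA-1, was the 1 pathway gene whose difference between diets passed by edgeR. It was at 15.37 and 14.83 FPKM in ND SMs, 25.18 and 28.51 in ND ARMs, 31.94 and 30.25 in HFD SMs and 30.58 and 26.45 in HFD ARMs. ND SMs were the low group and the HFD SM libraries overlapped with neither ND group, lying above both, whereas those of Sphk1 and Hbegf overlapped with ND ARMs. Its log2 fold change was 0.83 (SE 0.12, edgeR adjusted p = 0.000715) in ND and -0.15 (SE 0.0846, edgeR adjusted p = 0.324) in HFD mice, and the difference was -1.0 (SE 0.144, edgeR adjusted p = 0.0167). The difference did not pass without ND SM replicate 1 (-0.99), ND SM replicate 2 (-0.96), HFD ARM replicate 1 (-1.12) or HFD ARM replicate 2 (-0.88), where its size was close to the full value. Fosl1 overlaps exon sequence of Ccdc85b.

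By DESeq2 the difference between diets passed for 6 pathway genes. Fosl1, Rhbdf2, Cebpb, Nr4a3 and Maff were lower and Dusp6 was higher, and of these Nr4a3 and Maff are named after their values were seen. In edgeR, Nr4a3, encoding an orphan nuclear receptor, had a difference of -0.62 (SE 0.138, edgeR adjusted p = 0.108), Maff, encoding a small MAF factor, -0.47 (SE 0.11, edgeR adjusted p = 0.131) and Dusp6 0.51 (SE 0.123, edgeR adjusted p = 0.146).

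Genes whose levels followed the 6 most closely were found by the Pearson correlation over 8 libraries of log2 CPM, centred within each diet, with the mean of the 6, among 7995 genes. The 10 highest were Pim3 (0.992), Tnfrsf12a (0.983), Fosl1 (0.980), Pfkfb3 (0.975), Usf2 (0.972), Rabgef1 (0.971), Txnrd1 (0.969), Sod2 (0.965), Mtmr10 (0.964) and Baz1a (0.963). The 8 points share libraries and depth, and with a single contrast in 1 diet carrying most of the variation, high values are easy to reach, so these are a description. A high correlation did not mean a change as large: Pim3, a kinase gene, had log2 fold changes of 0.16 in ND and -0.03 in HFD mice. Tnfrsf12a, the receptor for TWEAK, had 0.49 and -0.05, with 44.37 and 47.23 FPKM in ND SMs, 64.85 and 63.30 in ND ARMs, 86.83 and 83.28 in HFD SMs and 84.30 and 81.34 in HFD ARMs. Pfkfb3, which encodes a regulator of glycolysis, had 0.41 and -0.11.

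Member by member, the closest gene outside the 6 was Naa80 for Hbegf (0.995), Trib1 for Thbd (0.986), Tnfrsf12a for Sphk1 (0.979), Gfpt2 for Errfi1 (0.988), Pim3 for Id2 (0.987) and Kdm4b for Sbno2 (0.984). Among themselves, Sphk1 and Errfi1 were the most alike (0.985), and Thbd and Hbegf the least (0.569). Thbd was the least like the mean of the 6 (0.833) and Id2 the most (0.996).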

How the data were processed

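RNA of sorted macrophages was sequenced in 8 libraries (4 groups of 2). The authors deposited 1 table per diet, with estimated counts, FPKM and TPM (transcript levels scaled to gene length and library size) for each library. The submitters' processing notes name mm10. The aligner, the counting program and the use of strand are not given in the sources used here.

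The estimated counts, rounded to integers, went into edgeR 4.0.16 (quasi-likelihood test, TMM normalization, filterByExpr) in R 4.3.3, separately for ARM against SM in each diet and over all 8 libraries for the difference between diets. P-values were adjusted over all genes by the Benjamini-Hochberg method, and a call needed an adjusted p under 0.05 and, within a diet, a fold change over 1.5. They measure the spread between pooled libraries, which no label ties to separate experiments. An exact permutation test of 2 against 2 libraries cannot go below p = 0.333 and was not used. Precision is set by the pairs of libraries, at totals of 14508824 to 19040133 counts. The fits were tested on simulated data.

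The 6 genes and the pathway and marker lists were chosen with earlier results of these data known, so the lists are no independent evidence. Named genes were the 6, every called pathway gene, a set of partners fixed by name, and the 10 genes most like the 6 (mean over 10 CPM). Promoters were those of RefSeq for GRCm38.p6. Alternatives were DESeq2 1.42.0, limma 3.58.1 on log2(FPKM + 1) and log2(FPKM + 0.1), other normalizations and filters, a replicate block and leaving out each library. Sequence of Hbegf and Thbd was not analysed here.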

Additional observations from a re-analysis of the deposited data

Results flagged for a closer look

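1 pathway gene outside the 6 drew attention because its ARM over SM change differed between the diets by a test of that difference. For Fosl1 the log2 fold change of ARM over SM in HFD mice less that in ND mice was -1.0 (edgeR adjusted p = 0.0167), being 0.83 in ND mice and -0.15 in HFD mice. Across the 8 fits that left out 1 library the difference ranged from -1.12 to -0.88, and 4 of them did not pass. The groups of 2 libraries were too small for a check of single outlying samples.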

How the results depend on the processing

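The 6 genes kept the sign of their fitted change in every fit run, in ND mice, in HFD mice and in the difference between diets. These contrasts chose the genes, so the kept signs only describe them. In HFD mice Sphk1 came as near to 0 as -0.00. The HFD change of Id2 moved by at least its SD between replicate libraries in 10 of 18 alternatives. Its difference between diets did so in 9 of 14. The median difference of the 6 genes, -0.77, was -0.72 with library totals and ranged from -0.78 to -0.71 when 1 library was left out. The median change of the 6 genes ranged from 0.67 to 0.73 in ND mice and from -0.10 to -0.08 in HFD mice when 1 library was left out.

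Counts of called pathway genes were less stable. In ND mice the 15 calls became 7 with limma on log2(FPKM + 1) or log2(FPKM + 0.1), 0 with limma and no filter (41 at an unadjusted p under 0.05), and 9 to 20 when 1 library was left out, with 9 without ND ARM replicate 2. In HFD mice the 14 calls became 2 with no filter in edgeR, 8 with limma on log2(FPKM + 1), 0 with limma and no filter (53 at an unadjusted p under 0.05), and 4 to 13 when 1 library was left out, with 5 without HFD ARM replicate 1 and 4 without HFD ARM replicate 2. The single call for the difference between diets became 6 with DESeq2 and 0 to 5 when 1 library was left out, with 0 without either ND SM or either HFD ARM library, 5 without ND ARM replicate 1 and 2 without HFD SM replicate 1. The cause was not tested.

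With the replicate number as a block, calls were 21 in ND mice, 14 in HFD mice and 9 for the difference. The labels do not say that a number marks a shared pool or day, and the differences between replicates of ARMs and SMs correlated across genes at 0.279 in ND and 0.0175 in HFD mice, so the block was not used. The ratio of HFD over ND in CPM was added after seeing the data. With 2 libraries per group, small differences in genes of low count were not detectable at this depth.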
